A study of Mus musculus with 4 samples.

Results

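The genes followed here are 40 members of the TGF-beta and BMP signalling module, listed by role with earlier results of these data known. They comprise 5 TGF-beta and activin ligands, 6 BMP-type ligands, the protease gene *Bmp1*, 11 receptors and co-receptors, 4 extracellular antagonists, 8 SMAD genes and 5 target genes. All 40 were found among the 21462 genes of the deposited table, 39 by symbol and *Ctgf* under its current symbol *Ccn2*. A mean of at least 10 normalized counts over the libraries was reached by 38 members, which were tested together with every other gene at that level, 16659 in all. *Grem1* and *Nog* stayed below that level and are described by their values.

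RNA was sequenced from smooth muscle cells (SMCs) of mouse lung, in 2 libraries from *Tet3* mutant animals and 2 from control animals, to ask how loss of *Tet3* affects expression in these cells. The TET3 protein oxidizes methylated cytosines of DNA. Mutants were homozygous for a floxed *Tet3* allele and carried Cre under a smooth muscle α-actin promoter, active only after tamoxifen (*α-SMA-ERT2Cre*), together with a *ROSA26* tdTomato reporter on a C57BL/6 background. For all experiments, the methods describe controls that lacked the floxed allele and carried Cre, the reporter or both. The controls of these libraries carried at least the reporter, since tdTomato+ cells were sorted from them. Tamoxifen was given from young adulthood, and the methods name no group that went without it. Lungs were digested, blood-lineage cells were depleted with CD45 and Ter-119 beads, and living tdTomato+ cells were sorted. The α-actin promoter marks every cell that uses it, so pericytes and myofibroblasts with α-actin can enter such a gate. Each library came from a separate animal by the study's methods, while age at harvest and sex are not given in the labels.

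TGF-beta and BMP ligands are secreted dimers that assemble type II and type I receptor kinases into a complex. Activated TGF-beta and activin receptors phosphorylate SMAD2 and SMAD3, and BMP receptors phosphorylate SMAD1, SMAD5 and SMAD9, which enter the nucleus with SMAD4. In vascular smooth muscle TGF-beta is known for promoting contractile and matrix genes, and BMP receptor type II is known as the main gene of heritable pulmonary arterial hypertension.

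The deposited totals were 6805272 to 7164573 normalized counts per library, and the reads assigned to genes were estimated at 6.32 M to 7.56 M. *Tet3* itself was read at 1847 and 1926 normalized counts in the controls and at 1534 and 1444 in the mutants, here and below in the order of replicates 1 and 2. It was lower in both mutants, at an adjusted limma p of 0.681. Control replicate 2 stood apart from the rest, since 999 genes lay more than 2-fold above or below all 3 other libraries, against 115 to 247 genes for each of the others. It had 2 normalized counts of *Xist* and 774 of the Y-linked *Ddx3y*, where the other libraries had 5214 to 6781 and 0. By these genes control replicate 2 read as male and the other libraries, both mutants included, as female. Sex was thus not balanced between the groups. All 10 smooth muscle markers were above the floor of 3 normalized counts in every library, and in the lists of other lung cell types 0 listed markers stayed at or under it in all 4 libraries. Summed per kilobase of exon, the alveolar type 2 list reached 3390 to 6470 and the smooth muscle list 1590 to 2210. In such bulk samples, fewer cells of a type and less RNA per cell cannot be told apart.

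No member of the module passed the test between Tet3 mutant and control SMCs, and most members lay close to no difference. Adjusted over all genes tested with limma, the smallest p among the members was 0.681. The same test called 0.0% of all genes, with a smallest adjusted p of 0.0902. At an unadjusted p under 0.05, 2 of 38 members stood out, the ligand *Tgfb3* and the target *Id4*, both higher in the mutants. That is 5.26% of the members beside 6.68% of all genes tested, of which 3.83% were higher and 2.85% lower. In 14 members, or 36.8%, the mutant values lay entirely above or below the control values, beside 39.0% of all genes. Of the 38 tested members, 9 were higher in both mutants, *Tgfb3*, *Inhba*, *Gdf10*, *Fst*, *Smad6*, *Id3*, *Id4*, *Acvr1* and *Acvr1b*. In 5 of the 38 both mutants were lower, *Bmp2*, *Acvr2b*, *Smad1*, *Smad2* and *Smad3*. All genes gave 19.6% higher and 19.5% lower.

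The members' log2 fold changes, taken on log2(value + 1) with higher mutant values positive, had a median of 0.06 and ranged from -0.72 for *Bmp2* to 0.89 for *Id4*. The median over all genes tested was -0.01. An absolute log2 fold change under 0.25 was found in 28 of 38 members, or 73.7%, beside 58.0% of all genes. The 95% interval lay within a change of 1 on the log2 scale, that is within 2-fold either way, for 31 members, beside 59.2% of all genes. It lay within 1.5-fold either way for 21 members. Of the others, the intervals of *Id4* and *Tgfb3* lay above no change, and those of the rest held both no change and a change of that size. Leaving out control replicate 2 gave a median of -0.03 over the members, and leaving out control replicate 1 gave 0.13. The direction of 21 members turned when single libraries were left out in turn, and it was kept in 44.7% of members beside 54.7% of all genes.

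**Figure D1:**
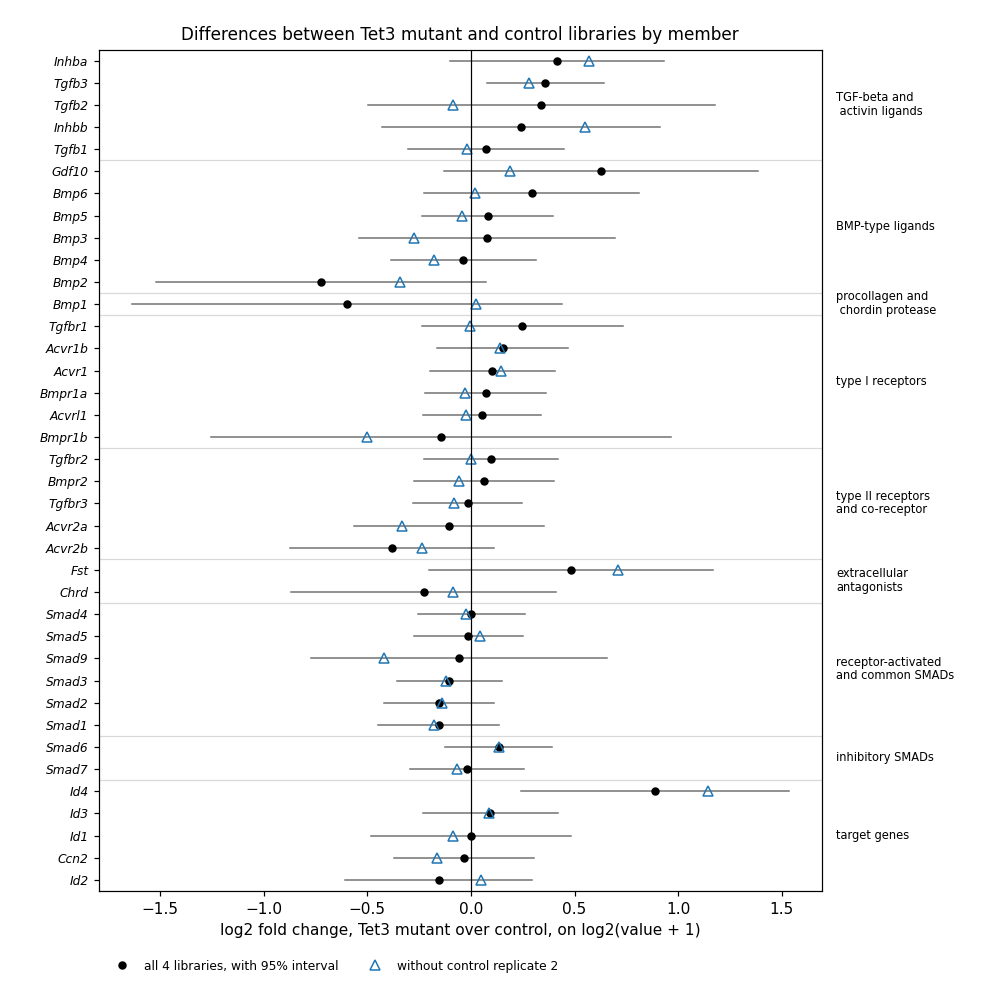
Log2 fold change of each tested member, Tet3 mutant over control on log2(value + 1), grouped by role. Black points are estimates from all 4 libraries with their 95% interval, blue triangles the estimate without control replicate 2. The intervals of *Tgfb3* and *Id4* alone lie to the right of 0, and the triangle of *Bmp1* moves from -0.60 to 0.02.

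The libraries of the mutants were more alike in these genes than those of the controls. The controls differed by more than 1.5-fold in 8 members, *Tgfb2*, *Inhbb*, *Bmp2*, *Bmp3*, *Gdf10*, *Bmp1*, *Bmpr1b* and *Smad9*, and the mutants in 0. This was 21.1% and 0.0% of the members, beside 24.9% and 15.1% of all genes. Control replicate 2 held the lowest value of 20 members, or 52.6%, beside 33.1% of all genes, so the controls' spread in this module lay mostly on the low side of that library.

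Ligands, receptors and a target gene were among the most abundant members per length of exon. *Ccn2*, which codes for a matricellular protein induced by TGF-beta, had the highest mean level with 464 normalized counts per kilobase. *Acvrl1*, the type I receptor ALK1 known from endothelium, followed at 451, *Tgfbr3*, the co-receptor betaglycan, at 393, *Bmp5* at 359, *Tgfbr2* at 342 and *Tgfb3* at 324. The libraries' ranges of *Ccn2*, at 427 to 512, and *Acvrl1*, at 419 to 477 per kilobase, overlapped, so their order was not settled. It is not stated whether counting used strand, and some members share exon bases with other genes, most of which lie on the opposite strand. *Bmp5* shares 1878 of its 4025 exon bases with the noncoding gene *Gm26903*, and *Tgfb3* shares 163 and 257 of 3383 with noncoding genes that had 2 to 7 normalized counts. The others are *Tgfb2*, *Bmp4*, *Bmp6*, *Acvrl1*, *Bmpr1a*, *Acvr2a*, *Tgfbr3*, *Chrd*, *Fst*, *Smad5*, *Id4* and *Ccn2*. At the low end were the antagonists, with *Fst* at 18.8, *Chrd* at 13.3, *Nog* at 5.16 and *Grem1* at 1.33, and the type I receptor *Bmpr1b* at 5.07 per kilobase. *Acvrl1* was read beside a marker list of endothelium, 10 genes with a median of 254 normalized counts per kilobase.

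**Figure D2:**
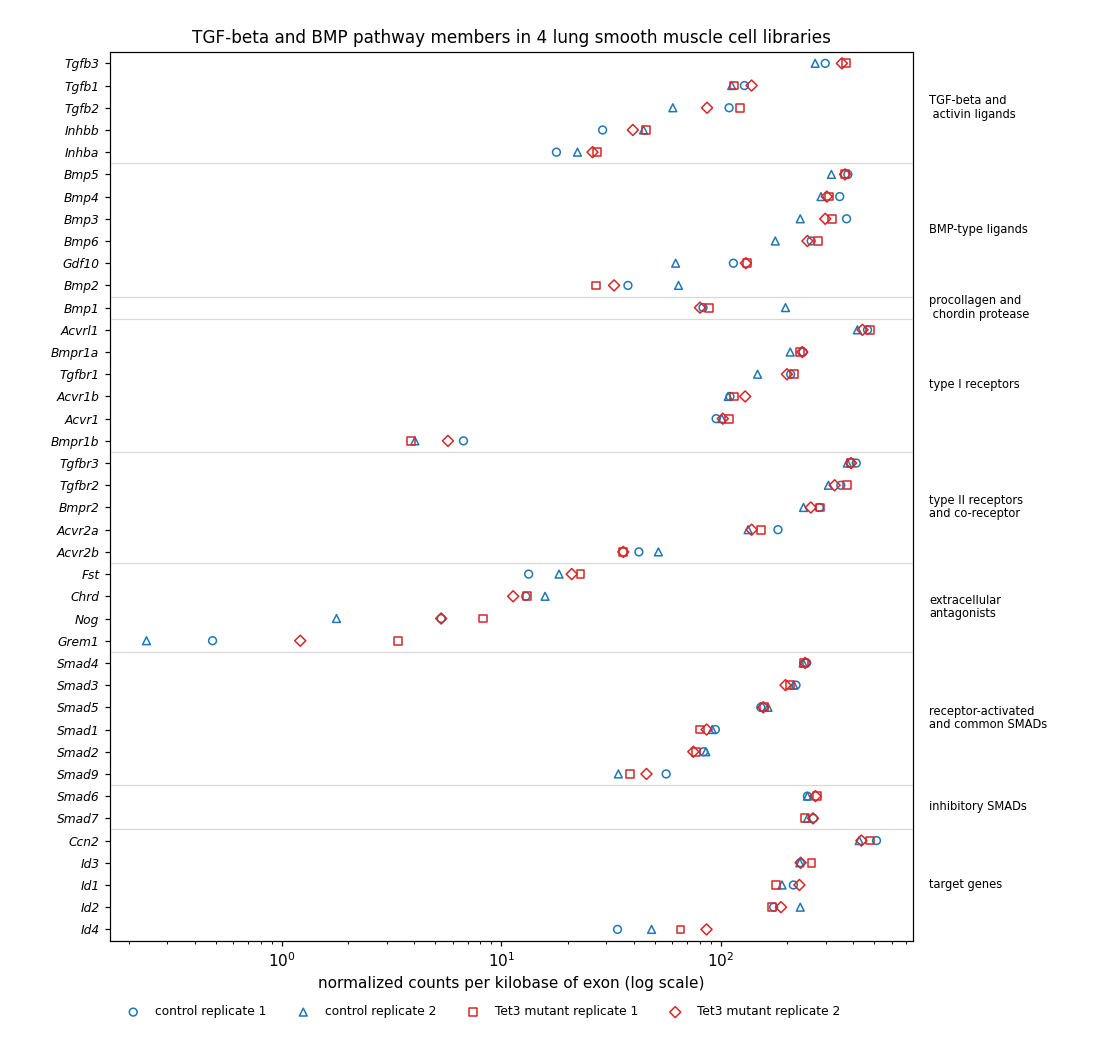
Normalized counts per kilobase of exon of the 40 members in each library, on a log axis, grouped by role and ordered by mean level within a role. Blue circles and triangles are control replicates 1 and 2, red squares and diamonds Tet3 mutant replicates 1 and 2. The 4 symbols of most members lie close together, and *Grem1*, *Nog* and *Bmpr1b* lie lowest.

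Among the TGF-beta and activin ligands, all 5 had estimates above 0, beside 49.0% of all genes, with a median log2 fold change of 0.34. The direction turned for 3 of the 5, *Tgfb1*, *Tgfb2* and *Inhbb*, when single libraries were left out in turn. An unadjusted limma p under 0.05 was reached by 1 of the 5, *Tgfb3*, beside 6.68% of all genes. *Tgfb3* (ENSMUSG00000021253, chromosome 12, 86056745 to 86079041 on GRCm38) codes for the TGF-beta isoform with the highest level per kilobase here. It had 1013 and 910 normalized counts in the controls and 1262 and 1203 in the mutants. Both mutants lay above both controls, and the replicates of either genotype differed by less than the gap between the genotypes. The means were 961.5 ± 72.8 in controls and 1232.5 ± 41.7 in mutants (SD, n = 2 each). The log2 fold change was 0.36 ± 0.11 (SE), a 1.28-fold higher level with a 95% interval of 1.05 to 1.56, and the limma p was 0.0222 unadjusted and 0.681 adjusted. Left without each library in turn, the estimate stayed between 0.28 and 0.44.

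Summed counts of contractile marker genes were also higher in both mutants. The 10 smooth muscle markers summed to 9716 and 10705 normalized counts in the controls and 11986 and 11125 in the mutants, with 9 of 10 higher in the mutants by the fitted estimates. The 7 pericyte markers summed to 4334 and 4502 in the controls and 6340 and 5432 in the mutants, with 7 of 7 higher. Within the controls the order differed, since *Tgfb3* was higher in replicate 1 and both sums were higher in replicate 2. The paper reports more reads of *Acta2* and *Cnn1* after *Tet3* loss but less full-length mRNA. It ascribes these reads to transcription started inside genes. More cells of a type and more RNA per cell cannot be told apart in such sums. The part of these markers in the result for *Tgfb3* was not tested.

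*Tgfb1*, the isoform made by many cell types and in particular by immune cells and platelets, had 644 and 567 normalized counts in the controls and 579 and 698 in the mutants. The groups overlapped, and the log2 fold change was 0.07 ± 0.15 (SE). *Tgfb2* ranged from 350 to 631 in the controls and from 501 to 707 in the mutants, again overlapping, with an estimate of 0.34 that turned to -0.08 without control replicate 2. *Inhba* and *Inhbb* code for the β subunits of activin A and activin B. *Inhba* had 114 and 142 normalized counts in the controls and 174 and 166 in the mutants, which do not overlap, at an estimate of 0.41 ± 0.20 (SE). *Inhbb* lay between 123 and 193 in all libraries, and its groups overlapped.

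BMP-type ligands went in no common direction, with 4 estimates above 0, 2 below and a median of 0.08. An unadjusted limma p under 0.05 was reached by 0 of 6, beside 6.68% of all genes. *Bmp2*, a ligand of the BMP receptors BMPR1A and BMPR2, lay lower in the mutants and gave the lowest estimate of the module. *Gdf10*, also called BMP3B, lay higher. The abundant ligands *Bmp3*, *Bmp4* and *Bmp5* had estimates within 0.1 of 0.

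*Bmp2* (ENSMUSG00000027358, chromosome 2, 133552159 to 133562885) had 134 and 228 normalized counts in the controls and 96 and 116 in the mutants. Both mutants lay below both controls, yet control replicate 1 lay nearer to the mutants than to control replicate 2. The log2 fold change was -0.72 ± 0.31 (SE) and a 95% interval of -1.52 to 0.08, at an unadjusted limma p of 0.0675. Without control replicate 2 the estimate was -0.34. The 7 alveolar type 2 markers summed to 14114 and 20557 normalized counts in the controls and 9854 and 12840 in the mutants, with 0 of 7 higher in the mutants, which is the same order of libraries as for *Bmp2*. Their part in the result was not tested.

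*Gdf10* (ENSMUSG00000021943, chromosome 14, 33923587 to 33937983) had 596 and 324 normalized counts in the controls and 686 and 675 in the mutants. The mutants were nearly equal, control replicate 1 lay a little below them and control replicate 2 far below. The log2 fold change was 0.63 ± 0.30 (SE) and a 95% interval of -0.13 to 1.39, and it was 0.19 without control replicate 2.

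*Bmp5* had 1527 and 1284 normalized counts in the controls and 1479 and 1482 in the mutants, for a log2 fold change of 0.08 ± 0.12 (SE). *Bmp4*, a ligand that lung mesenchyme makes during branching, had 782 and 642 in the controls and 697 and 684 in the mutants, for -0.04 ± 0.14 (SE). In both genes the mutants lay between the controls. *Bmp3*, a ligand known for opposing other BMPs, ranged from 1700 to 2767 in the controls and from 2215 to 2367 in the mutants. *Bmp6* ranged from 690 to 1005 and from 968 to 1075. The estimate of *Bmp6*, 0.29 from all libraries, was 0.02 without control replicate 2.

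*Bmp1* is named with the BMPs but codes for a metalloprotease that trims procollagen and cleaves chordin. It had 735 and 1743 normalized counts in the controls and 784 and 712 in the mutants. Control replicate 2 was more than 2-fold above every other library, and the remaining 3 lay close together. The log2 fold change was -0.60 ± 0.41 (SE), and it was 0.02 without control replicate 2. The gene occupies chromosome 14, 70474558 to 70520234, and *Sftpc*, an alveolar type 2 marker, lies 715 bases from its start, at 70520949 to 70524081. *Sftpc* had 825 and 1254 normalized counts in the controls and 904 and 780 in the mutants, so it too was highest in control replicate 2. Whether reads of one gene were counted for the other was not tested.

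**Figure D3:**
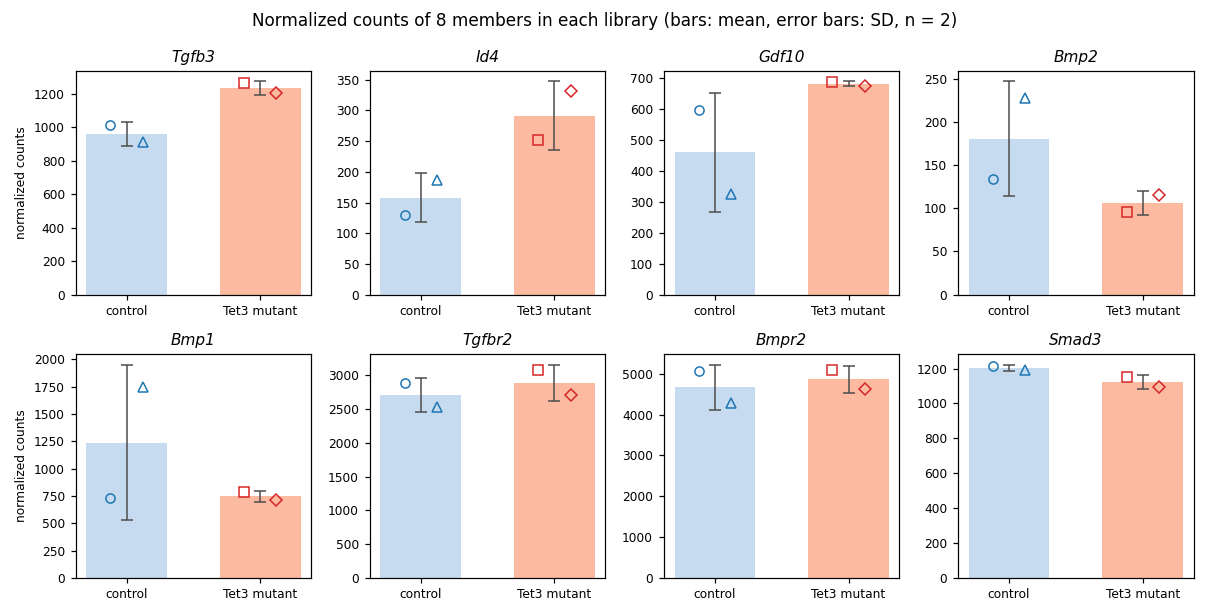
Normalized counts of 8 members, with bars for the mean of 2 libraries, error bars for the SD and the symbols of the plot of levels for single libraries. *Tgfb3*, *Id4* and *Gdf10* are higher in both mutants, *Bmp2* and *Smad3* lower, and in *Gdf10*, *Bmp2* and *Bmp1* the control error bar is long because control replicate 2 lies away from replicate 1.

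Receptors varied little. All 11 were tested, and their log2 fold changes ran from -0.38 to 0.25 with a median of 0.06. An unadjusted limma p under 0.05 was reached by 0 of 11, beside 6.68% of all genes. In 10 of 11 the absolute log2 fold change was under 0.25, beside 58.0% of all genes. The groups were apart in 3, or 27.3%, beside 39.0% of all genes. *Tgfbr2* and *Bmpr2*, the type II receptors of the TGF-beta and BMP arms, were measured at high counts and differed by less than the spread between replicates.

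*Tgfbr2* had 2883 and 2527 normalized counts in the controls and 3081 and 2705 in the mutants, a log2 fold change of 0.10 ± 0.13 (SE). *Bmpr2* ranged from 4273 to 5058 in the controls and from 4624 to 5100 in the mutants, a 1.04-fold level with a 95% interval of 0.827 to 1.32. In both genes replicate 1 lay above replicate 2 in either genotype, by more than the means of the genotypes differed. *Tgfbr3*, which presents TGF-beta2 to the signalling receptors, had 2707 and 2470 in the controls and 2551 and 2565 in the mutants, a 0.989-fold level with an interval of 0.824 to 1.19. *Acvrl1* had 1989 and 1788 in the controls and 2036 and 1884 in the mutants, for 0.05 ± 0.11 (SE). *Bmpr1a*, the widely expressed BMP type I receptor, had 1506 and 1312 in the controls and 1460 and 1495 in the mutants, for 0.07 ± 0.11 (SE).

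The other receptors are given by range. *Tgfbr1*, the type I receptor of TGF-beta, ranged from 958 to 1360 normalized counts in the controls and from 1304 to 1411 in the mutants, and its estimate of 0.25 was 0.00 without control replicate 2. The type I receptors *Acvr1* and *Acvr1b* lay higher in both mutants, at estimates of 0.10 and 0.15. *Acvr2b*, an activin type II receptor, had the largest estimate of the receptors. It read 166 and 204 in the controls and 141 in either mutant, which do not overlap, at a log2 fold change of -0.38 ± 0.19 (SE). *Acvr2a* ranged from 757 to 1037 over all libraries and shares 446 exon bases with *Orc4*, a gene on the opposite strand. *Bmpr1b*, at 23 to 40 normalized counts, was the receptor with the widest interval, 0.420-fold to 1.95-fold.

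Extracellular antagonists were scarce, with a mean of 1.33 to 18.8 normalized counts per kilobase, a range in which *Bmpr1b* was the only other member. *Fst*, follistatin, binds activins and had 61 and 84 normalized counts in the controls and 105 and 96 in the mutants. The mutants lay above the controls, and the log2 fold change was 0.48 ± 0.27 (SE) and an interval of -0.20 to 1.17. *Chrd*, chordin, binds BMPs and had 81 and 99 in the controls and 82 and 71 in the mutants. Its groups overlapped, at -0.23 ± 0.25 (SE).

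*Grem1*, gremlin 1, an antagonist of BMP2, BMP4 and BMP7, had 2 and 1 normalized counts in the controls, at or under the floor of 3, and 14 and 5 in the mutants. *Nog*, noggin, had 9 and 3 in the controls and 14 and 9 in the mutants. Counts this low allow no firm statement on either gene.

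The SMAD genes were the most even role of the module. All 8 had an absolute log2 fold change under 0.25, beside 58.0% of all genes. The range was -0.16 to 0.13 and the median -0.04. An unadjusted limma p under 0.05 was reached by 0 of 8, beside 6.68% of all genes. The groups were apart in 4, or 50.0%, beside 39.0% of all genes. Of the receptor-activated SMADs, *Smad1*, *Smad2* and *Smad3* lay slightly lower in both mutants, while *Smad5* and *Smad9* overlapped between groups. For 7 of 8 the 95% interval lay within 1.5-fold either way, the exception being *Smad9*.

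*Smad4*, the partner of all receptor-activated SMADs, had 912 and 879 normalized counts in the controls and 892 and 900 in the mutants, a 1.00-fold level with a 95% interval of 0.837 to 1.20. *Smad3*, a mediator of TGF-beta and activin signals, had 1217 and 1191 in the controls and 1149 and 1093 in the mutants, for -0.10 ± 0.10 (SE). Its groups did not overlap, and its difference was of the size of its standard error. *Smad2* had 733 and 750 in the controls and 675 and 658 in the mutants, for -0.15 ± 0.10 (SE). *Smad1* had 591 and 572 in the controls and 505 and 539 in the mutants, for -0.16 ± 0.11 (SE). *Smad5* lay between 1126 and 1220 in all libraries. *Smad9*, also named *Smad8*, ranged from 183 to 302 in the controls and from 207 to 246 in the mutants.

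*Smad6* and *Smad7* code for inhibitory SMADs, which are themselves induced by BMP and TGF-beta signals and act back on the receptors. *Smad6* (ENSMUSG00000036867, chromosome 9, 63953076 to 64022059) had 794 and 795 normalized counts in the controls and 878 and 865 in the mutants. The replicates were nearly equal and the mutants lay above the controls, at a log2 fold change of 0.13 ± 0.10 (SE) and an unadjusted limma p of 0.242. *Smad7* had 1194 and 1121 in the controls and 1094 and 1190 in the mutants, which overlapped, for -0.02 ± 0.11 (SE).

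Among the target genes, the ID genes code for proteins that hold helix-loop-helix factors off DNA and are classical responders to BMP. They did not go together. *Id4* had the highest estimate of all members, *Id3* lay slightly higher in both mutants, and *Id1* and *Id2* overlapped between the groups.

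*Id4* (ENSMUSG00000021379, chromosome 13, 48261228 to 48266026) had 130 and 186 normalized counts in the controls and 252 and 331 in the mutants. Both mutants lay above both controls. The means were 158.0 ± 39.6 in controls and 291.5 ± 55.9 in mutants (SD, n = 2 each). The log2 fold change was 0.89 ± 0.25 (SE), a 1.85-fold higher level with a 95% interval of 1.18 to 2.90, and the limma p was 0.0164 unadjusted and 0.681 adjusted. The estimate was 1.15 without control replicate 2 and stayed between 0.63 and 1.15 with any library left out. *Id4* shares 171 exon bases with a long noncoding gene and 82 with an antisense gene on the opposite strand.

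Markers of ciliated epithelium and pericytes were also higher in both mutants. The 6 ciliated cell markers summed to 1732 and 1908 normalized counts in the controls and 3249 and 2473 in the mutants, with 6 of 6 higher, and the pericyte sums are given above with *Tgfb3*. Within the mutants the order was the reverse of that of *Id4*, which was higher in replicate 2. The smooth muscle sum, given there too, was likewise higher in both mutants, and 4 of its 10 markers had the same order of the 4 libraries as *Id4*. How many of all genes had that order was not counted. The rest of the list had other orders, and *Mylk*, its marker with the most counts, had an estimate of -0.11. *Actg2*, a smooth muscle actin, had 101 and 158 normalized counts in the controls and 237 and 311 in the mutants, *Cnn1*, calponin, 57 and 110 and then 138 and 186, *Myocd*, a coactivator of contractile genes, 67 and 147 and then 191 and 218, and *Synpo2* 474 and 752 and then 867 and 875. The paper describes *Myocd* expression as unchanged after *Tet3* loss, and here its adjusted limma p was 0.681. *Actg2*, *Cnn1*, *Myocd* and *Synpo2* were named after their values were seen. The part of these markers, or of the cells they mark, in the result was not tested.

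*Id3* had 412 and 410 normalized counts in the controls and 464 and 414 in the mutants, a log2 fold change of 0.09 ± 0.13 (SE) that rested on mutant replicate 1, since it was 0.17 without mutant replicate 2 and 0.01 without mutant replicate 1. *Id1* ranged from 220 to 248 in the controls and from 207 to 264 in the mutants, a 1.00-fold level with an interval of 0.716 to 1.40. *Id2* ranged from 423 to 560 and from 416 to 459. *Ccn2* had 1464 and 1223 in the controls and 1369 and 1250 in the mutants, a log2 fold change of -0.03 ± 0.13 (SE). The mutant values of *Ccn2* lay between the controls, and 665 of its exon bases are shared with the noncoding gene *Gm15270* on the opposite strand.

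The promoters of *Smad6*, *Id3* and *Id4* are shown because these are the members known as pathway targets, inhibitory SMADs included, whose mutant values lay above both controls. Each stretch runs from 250 bases before to 10 bases after the RefSeq transcript start on GRCm38.p6, 5′ to 3′ on the gene's strand. Capitals mark 3 motifs. The GC-rich SMAD element, GGCGCC, and the palindromic SMAD element, GTCTAGAC, read the same on both strands. The SMAD box was searched as GTCT on either strand, and each palindromic element holds 2 such boxes, with 1 on each strand.
Id3, chr4:136143572-136143831, plus strand: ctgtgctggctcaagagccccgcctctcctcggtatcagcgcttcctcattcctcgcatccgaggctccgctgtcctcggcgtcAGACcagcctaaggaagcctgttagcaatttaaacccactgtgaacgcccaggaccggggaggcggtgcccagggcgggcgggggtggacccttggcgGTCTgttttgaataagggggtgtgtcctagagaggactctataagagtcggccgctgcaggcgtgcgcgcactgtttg
Id4, chr13:48260866-48261125, plus strand: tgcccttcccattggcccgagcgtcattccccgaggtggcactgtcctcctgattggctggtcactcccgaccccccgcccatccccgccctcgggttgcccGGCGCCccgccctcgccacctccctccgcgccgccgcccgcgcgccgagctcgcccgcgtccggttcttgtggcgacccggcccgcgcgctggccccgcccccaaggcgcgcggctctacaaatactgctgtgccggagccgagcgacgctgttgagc
Smad6, chr9:64022050-64022309, minus strand: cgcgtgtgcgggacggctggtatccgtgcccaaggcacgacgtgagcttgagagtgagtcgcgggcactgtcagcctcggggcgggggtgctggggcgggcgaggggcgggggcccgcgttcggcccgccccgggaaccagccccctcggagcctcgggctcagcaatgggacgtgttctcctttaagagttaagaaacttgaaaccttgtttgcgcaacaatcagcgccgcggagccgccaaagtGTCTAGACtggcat

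The 3 promoters held different letters. That of *Smad6* held the palindromic element, starting 4 bases before the transcript start, and no GC-rich element. That of *Id3* held 2 boxes, and that of *Id4* held the GC-rich element 148 bases before the start and no box. Of 32851 windows of this length at all RefSeq promoters, 0.177% held the palindromic element, 9.96% the GC-rich element and 84.0% at least 1 box. Of the members, 27 had 32 windows in this set. The rest had no window and were not searched, namely *Tgfb3*, *Bmp1*, *Bmp2*, *Bmp3*, *Acvrl1*, *Tgfbr3*, *Nog*, *Fst*, *Smad2*, *Smad4*, *Smad7*, *Id1* and *Ccn2*. Among the 32 windows 1 held the palindromic element, that of *Smad6*, 9 or 28.1% the GC-rich element, and 27 or 84.4% a box. The windows with a GC-rich element belonged to *Bmpr1a*, *Bmpr2*, *Chrd*, *Grem1*, *Id2*, *Id4*, *Smad5*, *Smad9* and *Tgfbr1*, so these letters were found both in members with a large and in members with a small difference. A match of letters does not show that a SMAD binds there.

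Around the members, 91 further genes of the pathway were looked up by role, of which 77 were listed and 67 tested. None passed the adjusted test, 4 had an unadjusted p under 0.05, 3 higher and 1 lower, or 5.97% beside 6.68% of all genes. In 25, or 37.3%, the groups did not overlap, beside 39.0% of all genes. Of the 67 genes tested, 19 were higher in both mutants and 6 lower in both, where all genes gave 19.6% and 19.5%. Control replicate 2 was lowest in 38 of the 67, beside 33.1% of all genes. The median log2 fold change of the 67 was 0.08.

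The 3 with higher values were *Pmepa1*, *Fstl3* and *Timp1*. *Pmepa1* codes for a membrane protein that is induced by TGF-beta and restrains SMAD2 and SMAD3, and it had 969 and 823 normalized counts in the controls and 1155 and 1087 in the mutants, a log2 fold change of 0.33 ± 0.13 (SE). *Fstl3*, a follistatin-like activin binder, had 278 and 195 in the controls and 340 and 337 in the mutants, for 0.54 ± 0.21 (SE). *Timp1*, an inhibitor of matrix metalloproteases, had 63 and 31 in the controls and 86 and 107 in the mutants, for 1.10 ± 0.41 (SE). In all 3 genes control replicate 2 was lowest, and without it the estimates were 0.21, 0.28 and 0.60.

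*Bambi*, a decoy receptor without a kinase domain, had 274 and 438 normalized counts in the controls and 221 and 220 in the mutants, a log2 fold change of -0.65 ± 0.25 (SE). Control replicate 2 was highest here, and without it the estimate was -0.31. The adjusted limma p of each of these 4 genes was 0.681.

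By role, 21 latency, activation and extracellular modulator genes were tested, with a median log2 fold change of 0.16. Of these, 11 lay higher in both mutants and 0 lower, or 52.4% apart in either direction beside 39.0% of all genes. All genes gave 19.6% higher and 19.5% lower. Control replicate 2 was lowest in 14 of the 21, beside 33.1% of all genes. The 11 include the integrin *Itgb8*, which activates latent TGF-beta, at 250 and 114 normalized counts in the controls and 407 and 291 in the mutants. Also among the 11 is *Ltbp2*, a matrix protein of the latent TGF-beta binding family, at 994 and 1571 and at 2374 and 1586. Neither reached an unadjusted p under 0.05, at 0.0540 and 0.0808 by limma, and both were named after their values were seen. *Ltbp4*, the latent TGF-beta binding protein with the most counts in this list, ranged from 3740 to 4168 with overlapping groups. Of 15 further TGF-beta response genes tested, 14 had estimates above 0, beside 49.0% of all genes, with a median of 0.17. In 3 of the 15 both mutants were higher, *Eln*, *Postn* and *Timp1*, beside 19.6% of all genes, and in 0 both were lower. Control replicate 2 was lowest in 9 of the 15, beside 33.1% of all genes. The direction turned for 7 of the 15 when single libraries were left out in turn, while 54.7% of all genes kept theirs. *Tgfbi* and *Fn1*, often used as readouts of TGF-beta, had estimates of 0.03 and 0.01. This response list and the fibroblast markers share the 3 collagens *Col1a1*, *Col1a2* and *Col3a1*. It shares *Junb* with the dissociation stress genes, and the modulator list shares *Dcn* with the fibroblast markers.

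The 16 intracellular regulators had a median of -0.02, with 1 higher in both mutants, *Pmepa1*, and 5 lower, *Smurf1*, *Zfyve9*, *Zfyve16*, *Map3k7* and *Nedd4l*, together 37.5% beside 39.0% of all genes. Of the 7 further ligands tested, all had estimates above 0, beside 49.0% of all genes, with a median of 0.53. Control replicate 2 was lowest in 5 of the 7, and levels were 0.502 to 31.7 normalized counts per kilobase over the list. The 5 further receptors tested had a median of -0.01, and the 3 further BMP response genes estimates of 0.33 for *Hey1*, 0.76 for *Msx1* and -0.04 for *Atoh8*.

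Marker lists of other cell types moved with genotype or with control replicate 2 in the same libraries. Fibroblast markers summed to 17860 to 21395 normalized counts in the controls and 20173 to 23040 in the mutants, with 7 of 8 higher in the mutants by the fitted estimates. Endothelial markers summed to 14788 to 15137 and to 15631 to 16127, with 9 of 10 higher and a median log2 fold change of 0.09. Per kilobase of exon their sums overlapped, at 2600 to 2820 in the controls and 2770 to 2930 in the mutants. Macrophage markers summed to 6549 to 7233 normalized counts in the controls and to 8008 to 8941 in the mutants, with 9 of 10 higher. Neutrophil markers summed to 834 to 1119 and to 1366 to 1982, with 7 of 7 higher. T cell markers had 248 in control replicate 2 and 808 to 900 in the other libraries. The 10 dissociation stress genes summed to 8785 to 10988 in the controls and to 6741 to 9280 in the mutants, with 0 of 10 higher by the fitted estimates, although the means of *Hspa1a*, 412.0 and 412.5, were nearly equal. The part of these cells in the members' values was not tested.

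**Figure D4:**
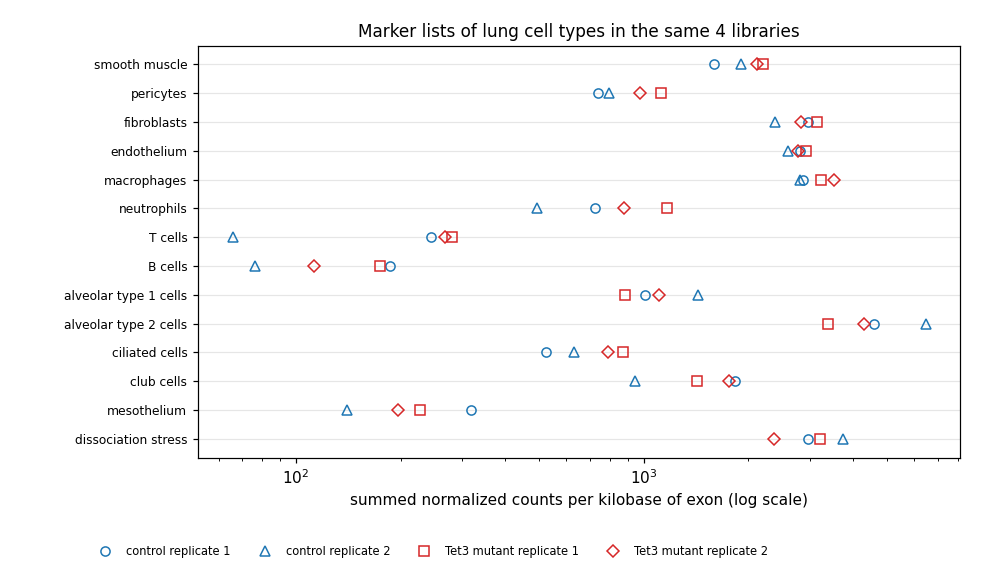
Summed normalized counts per kilobase of exon of marker lists of lung cell types and of dissociation stress genes in each library, on a log axis, with the symbols of the plot of levels. Smooth muscle, pericyte and ciliated cell sums are higher in both mutants, alveolar type 2 sums are lower in both, and T cell, B cell and mesothelium sums are lowest in control replicate 2.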

How the data were processed

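By their methods and processing notes, the authors depleted ribosomal RNA, made stranded total RNA libraries, sequenced them single-end, trimmed reads with Trimmomatic 0.36, aligned them to mm10 (GRCm38) with STAR 2.6.0c and counted them with featureCounts (Subread 1.6.0), leaving out reads of several genes or places. Whether counting used strand is not stated. The deposited values are a score, counts per gene scaled by the authors with DESeq2 and rounded to whole numbers, so no count test was run. Scaling factors, and from them depth, were estimated from gaps among low values, and floors cover counting error only.

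Values were compared as log2(value + 1), which understates changes of low genes, with limma 3.58.1 in R 4.3.3 (eBayes with trend), for genes with a mean of at least 10, Benjamini-Hochberg adjusted over all of them at 0.05. With 2 against 2 libraries an exact permutation test cannot go below 0.333. Levels between genes are per kilobase of exon (GENCODE M21). Groups and replicate numbers came from the labels. Same-numbered libraries deviated together with a Pearson correlation of 0.134 across genes in 2 pairs, which was not taken as pairing.

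Members and lists were chosen with earlier results of these data known. Members received values per library at an unadjusted p under 0.05, with groups apart and an absolute log2 fold change of at least 0.5, or as 1 of the 2 most abundant of a role per kilobase. Further pathway genes were named at an unadjusted p under 0.05 and a mean of at least 50. Others given with values per library were chosen after these were seen. Alternatives were a pseudocount of 0.5 or 8, a minimum mean of 1 or 50, scaling by trimmed means of M values (TMM) or to equal totals, no trend, the replicate block, and each library left out.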

Additional observations from a re-analysis of the deposited data

How the results depend on the processing

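With 2 libraries a group the fits had few degrees of freedom, and where a library was left out the lone sample of its group was assumed to vary like the other group. The number of members past the adjusted threshold was 0 under each setting tried. Over the processing settings, 338 of 343 gene estimates kept their direction. The exceptions came with equal library totals, which moved the median of all genes from -0.01 to 0.04 and gave 0.011 for *Bmp4*, 0.033 for *Tgfbr3*, 0.037 for *Smad5*, 0.029 for *Smad7* and 0.016 for *Ccn2*, with 8 further pathway genes at an unadjusted p under 0.05 in place of 4. Without the trend limma called 1 of all genes, and an unadjusted p under 0.05 was left to 1 member, *Id4*, and 2 further pathway genes. With the replicate block it was reached by 4 members, *Bmp2*, *Gdf10*, *Id4* and *Tgfb3*, and by 8 further pathway genes, at a smallest adjusted p of 0.316 among the members, while 9.83% of all genes reached that p. A mean of at least 1 added *Grem1* to the members under an unadjusted p of 0.05. The cause of these shifts was not tested.

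Leaving out each library in turn, members at an unadjusted p under 0.05 numbered 0 to 8, members with groups apart 18 to 34 (63.8% to 78.7% of all genes), further pathway genes at that p 0 to 14, and the members' median ran from -0.027 to 0.13. The 8 members came without control replicate 1, where 20.2% of all genes reached that p, and were *Acvr2b*, *Bmp1*, *Bmp2*, *Bmp3*, *Bmp6*, *Gdf10*, *Tgfb3* and *Tgfbr1*. Without control replicate 2 they were *Id4*, *Inhba* and *Tgfb3*, and without either mutant library there were 0. The direction turned for 21 genes, with ranges of -0.061 to 0.21 for *Tgfb1*, -0.084 to 0.76 for *Tgfb2*, -0.065 to 0.55 for *Inhbb*, -0.27 to 0.43 for *Bmp3*, -0.18 to 0.10 for *Bmp4*, -0.045 to 0.21 for *Bmp5*, -1.22 to 0.024 for *Bmp1*, -0.0038 to 0.50 for *Tgfbr1*, -0.022 to 0.13 for *Acvrl1*, -0.028 to 0.17 for *Bmpr1a*, -0.50 to 0.21 for *Bmpr1b*, -0.059 to 0.18 for *Bmpr2*, -0.33 to 0.12 for *Acvr2a*, -0.082 to 0.051 for *Tgfbr3*, -0.070 to 0.046 for *Smad5*, -0.42 to 0.30 for *Smad9*, -0.025 to 0.028 for *Smad4*, -0.081 to 0.041 for *Smad7*, -0.17 to 0.18 for *Id1*, -0.36 to 0.047 for *Id2* and -0.16 to 0.097 for *Ccn2*.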
